A study of Homo sapiens with 14 samples.

Results

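The Eph receptors are the largest family of receptor tyrosine kinases, and the ephrins are their ligands. The genes followed here are 5 receptors (EPHA2, EPHA4, EPHB2, EPHB4 and EPHB6) and 4 ephrins (EFNA1, EFNA5, EFNB1 and EFNB2). A gene was taken as measured when a probe set of the array was annotated with its symbol and no other. Of the 9 genes, 8 were measured, each by 1 probe set, among 18372 genes measured in all. No probe set carried the symbol EPHB2, alone or beside others, in the probe annotation used, so EPHB2 is not analysed here.

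The samples are 14 single-colour arrays, a pair for each of 7 human prostate cancer cell lines, whose total RNA came from 2 passages per line. PC3 cells came from a bone metastasis and DU-145 cells from a brain metastasis of prostate cancer. The sublines PC3-ML and PC3-N both descend from PC3. The lines PC3-ML (Clone 1) and PC3-ML (Clone 3), below Clone 1 and Clone 3, each grew from a single PC3-ML cell, so each is 1 clone. The names of 2 lines, PC3-N(PDGFRα) and DU-145 (PDGFRα), carry the receptor for platelet-derived growth factor that the gene PDGFRA encodes and that these lines overexpress. The promoter that drives it is not given in the sources used here, and no line with an empty vector was analysed. The labels give PC3-N(PDGFRα), PC3-ML and both clones of PC3-ML as bone metastatic, and PC3-N and both DU-145 lines as non-bone metastatic. The culture medium was the same for all, DMEM with serum and gentamicin. The question of the series is how expression differs between these groups of lines.

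Eph receptors and ephrins are both held in the cell membrane and act where cells touch. A-type ephrins are tied to the membrane by a lipid anchor and bind mainly EphA receptors, whereas B-type ephrins cross it and bind mainly EphB receptors, and EphA4 binds both types. Binding starts signals in the cell with the receptor and in the cell with the ephrin, and these move the cytoskeleton and set whether cells repel or adhere. In prostate cancer cells the family has been studied for its part in how cells move away from each other or from fibroblasts on contact.

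The gene EFNA5 lies on chromosome 5 (GRCh38.p14, 107376894 to 107670937), EFNB2 on chromosome 13 (106489745 to 106535662), EFNB1 on chromosome X (68829021 to 68842160) and EPHA2 on chromosome 1 (16124337 to 16156069). These are the 4 members whose levels spread most between the lines. For that reason the 250 bases before their RefSeq gene starts are shown, on the strand of each gene, with every GC box (GGGCGG or CCGCCC, the 2 strands of 1 motif) in capitals. The windows are chr5:107670938-107671187 on the minus strand, chr13:106535663-106535912 on the minus strand, chrX:68828771-68829020 on the plus strand and chr1:16156070-16156319 on the minus strand.
EFNA5: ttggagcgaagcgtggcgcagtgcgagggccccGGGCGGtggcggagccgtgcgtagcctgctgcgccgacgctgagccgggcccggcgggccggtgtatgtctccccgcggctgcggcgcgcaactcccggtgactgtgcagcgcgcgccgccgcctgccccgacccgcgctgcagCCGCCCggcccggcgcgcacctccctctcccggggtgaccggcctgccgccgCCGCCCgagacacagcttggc
EFNB2: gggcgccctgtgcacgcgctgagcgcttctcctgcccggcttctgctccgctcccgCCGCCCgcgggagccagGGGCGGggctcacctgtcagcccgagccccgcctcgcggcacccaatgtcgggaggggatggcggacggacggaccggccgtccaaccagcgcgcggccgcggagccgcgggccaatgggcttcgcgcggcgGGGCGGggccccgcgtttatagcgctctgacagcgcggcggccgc
EFNB1: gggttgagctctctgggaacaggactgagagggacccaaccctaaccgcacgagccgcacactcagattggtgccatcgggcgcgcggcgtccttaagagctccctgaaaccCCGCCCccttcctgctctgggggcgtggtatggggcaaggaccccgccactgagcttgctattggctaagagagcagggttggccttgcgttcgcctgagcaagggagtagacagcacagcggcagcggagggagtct
EPHA2: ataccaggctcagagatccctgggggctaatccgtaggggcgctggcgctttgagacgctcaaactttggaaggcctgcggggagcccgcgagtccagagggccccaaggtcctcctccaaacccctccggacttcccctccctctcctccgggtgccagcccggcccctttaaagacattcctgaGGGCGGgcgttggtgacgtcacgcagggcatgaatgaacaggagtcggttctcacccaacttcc
All 9 genes, EPHB2 included, matched at least 1 window in the RefSeq promoter table, with 11 windows in all. The window of EPHB6 and a further window of EPHA4 lie inside the annotated spans of these genes. All 9 genes had at least 1 GC box in the 250 bases before the first start the table gives, as did 42.6% of the 35116 windows in the RefSeq table. The windows of EFNA5 and EFNB2 were rich in CpG, with 41 and 40 CpG dinucleotides, and those of EFNB1 and EPHA2 had 15 each, against a median of 11 over all windows. EFNA5 and EFNB2 held 3 GC boxes each, and EFNB1 and EPHA2 held 1 each. EFNB2 alone of these 4 held the letters TATAAA, on the reverse strand, which 10.7% of all windows held on either strand, and the E-box CACCTG, which 17.5% held on either strand. None of the 4 held TGANTCA, the motif of AP-1, which 6.6% of all windows held. These matches describe the sequence and show no binding, and the series has no readout of methylation or binding at these starts.

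The values below are intensities after robust multi-array averaging (RMA) as deposited, on a linear scale, and each test was run on their log2. Array medians ran between 29.9 and 31.6, and values near or below them are compressed toward the floor of the array, so a change that ends there is a low estimate. The line mean lay below the median of its arrays in 4 lines for EPHA4, in 3 for EFNB2, in 2 for EFNA1 and in none for the other 5. Over all genes, the 2 arrays of a line correlated at 0.9891 to 0.9959. PDGFRA averaged 834 ± 23.3 in the overexpressing PC3-N line, PC3-N(PDGFRα), whereas PC3-N itself averaged 106 ± 4.32 (SD, n = 2 each). In DU-145 (PDGFRα) PDGFRA averaged 111 ± 26.4, whereas DU-145 averaged 26.9 ± 1.92 (SD, n = 2 each). PDGFRA averaged 28.8 ± 3.21 in Clone 1 and 128 ± 3.27 in Clone 3, against 130 ± 36.3 in PC3-ML (SD, n = 2 each). CTNNA1, known to be deleted in PC3 cells, read 22.3 to 24.9 on the PC3 arrays, against 138 to 282 on the DU-145 arrays. Of 5 epithelial markers, KRT8, KRT18, KRT19 and EPCAM were above the array median in all 7 lines, and CDH1 averaged 166 in DU-145, 53.4 in DU-145 (PDGFRα) and between 25.9 and 31.7 in the PC3 lines. Of the androgen receptor targets, KLK3 was below it in all 7, and KLK2 was below it in all but PC3-ML (32.2) and Clone 1 (31.4). The leukocyte markers PTPRC, CD14 and CD3E, the endothelial markers CDH5, VWF and TEK and the fibroblast markers DCN, LUM, PDGFRB and THY1 were below it in all 7, whereas CD68, COL1A1 and COL1A2 were above it. The endothelial marker PECAM1 moved with the background, at 44.8 to 90.3 over the PC3 line means against 21.9 and 22.6 in the DU-145 lines, and its part in the results between backgrounds was not tested.

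Calls were made in limma at an adjusted p under 0.05, by the Benjamini-Hochberg method over all 18372 genes. Asked whether it differed anywhere among the 7 lines (moderated F test), 7 of the 8 members were called, against 38.0% of all genes. EFNA1 was the exception, with an adjusted p of 0.360. The widest spread of line means was in EFNA5, 3.08-fold between the highest and the lowest line, followed by EFNB2 at 2.83-fold, EFNB1 at 2.18-fold and EPHA2 at 1.98-fold. EPHA4 spread 1.79-fold, EPHB6 1.70-fold, EPHB4 1.42-fold and EFNA1 1.22-fold. The median spread of the 8 members was 0.91 on the log2 scale, against 0.31 over all genes. Over the 13 other Eph receptors and ephrins measured it was 0.23. The members were chosen with earlier results of these data known, so these shares and spreads describe them and are no test of the family. PC3-N had the highest mean of the 7 lines for 6 of the 8 members (EPHA2, EPHA4, EPHB4, EPHB6, EFNA1 and EFNB2). For EPHA2, EPHB6 and EFNA1 its arrays overlapped with those of the next line. The share of all genes with their highest mean in PC3-N was not computed. The p values of tests between single lines measure a difference against the spread between 2 passages of each line, not between lines made independently.

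**Figure D1:**
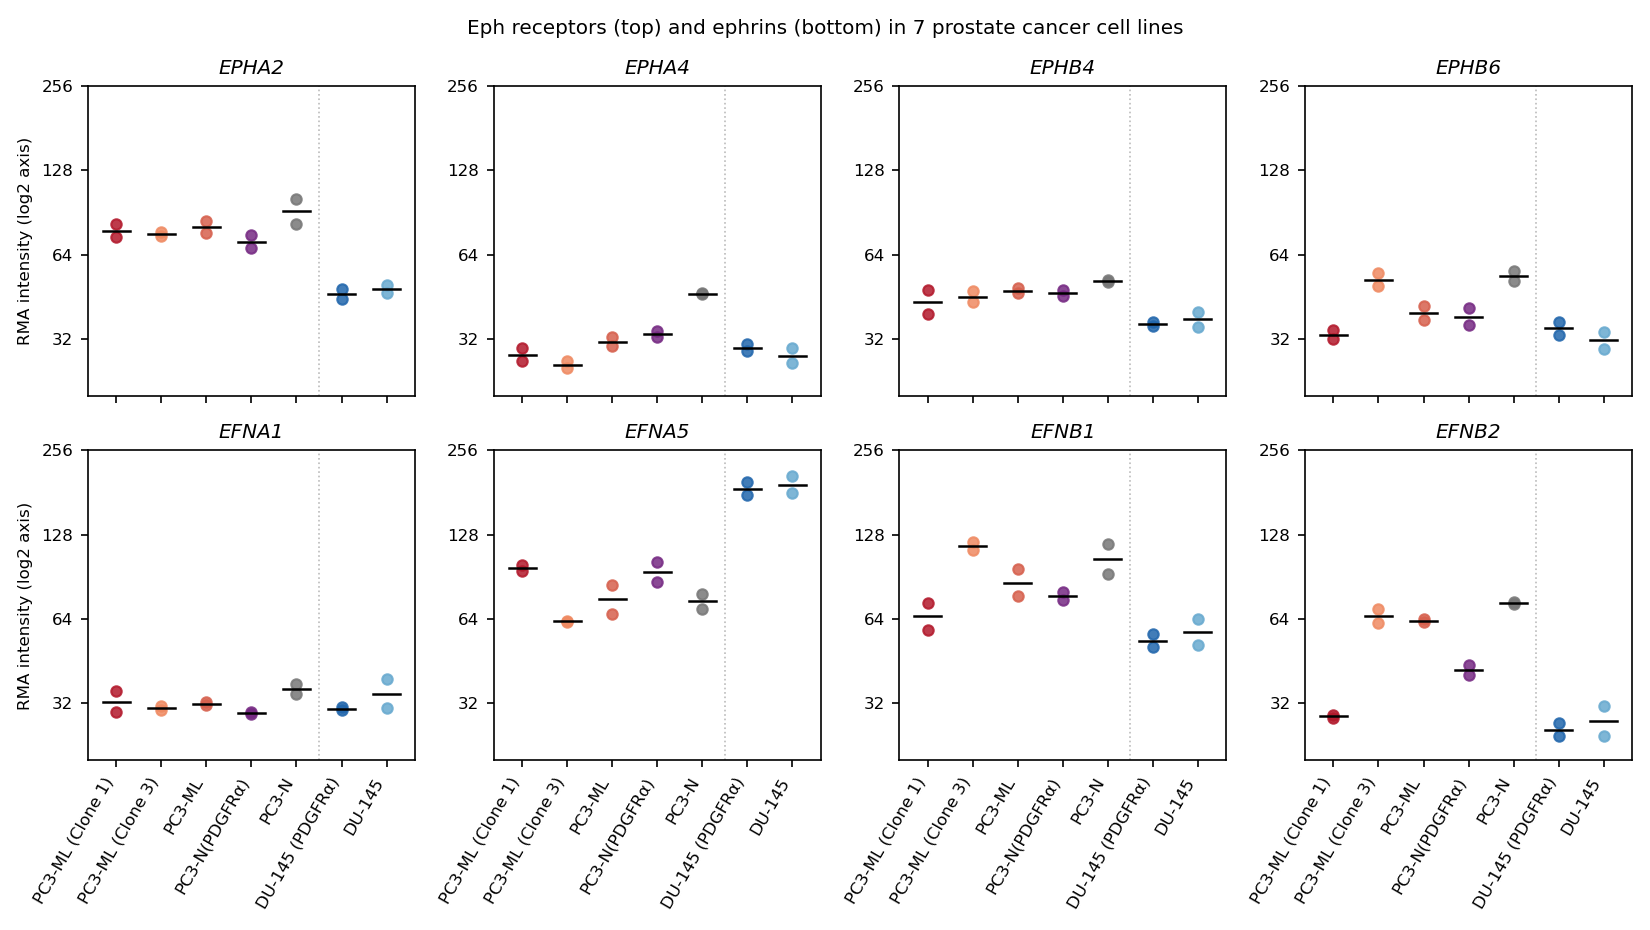
RMA intensity (vertical log2 axis) of the 8 measured members in each of the 7 lines, with a point per array, a bar at the mean of the log2 values and a dotted line between the PC3 and the DU-145 lines. All PC3 arrays lie above all DU-145 arrays for EPHA2 (67.8 to 101.5 against 44.6 to 49.9) and below them for EFNA5 (62.7 to 102.6 against 177.0 to 206.7), and EFNB2 is low in Clone 1 and in both DU-145 lines.

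EPHA2 is the receptor most often found at high levels in carcinoma cells and is bound by EFNA1 and EFNA5. It read 82.4 and 73.7 in Clone 1, 77.2 and 74.3 in Clone 3, 76.7 and 84.2 in PC3-ML itself, 74.9 and 67.8 in PC3-N(PDGFRα) and 101.5 and 82.5 in PC3-N. In the DU-145 background it read 44.6 and 48.1 in DU-145 (PDGFRα) and 49.9 and 46.7 in DU-145. Arrays of neighbouring lines in the order of EPHA2 levels overlapped within each background, and the single gap lay between the backgrounds. EPHA2 was the receptor with the plainest split between PC3 and DU-145.

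EPHA4, a receptor for ephrins of both types, was raised in 1 line. It read between 25.1 and 34.1 on 12 arrays, against 46.5 and 46.2 in PC3-N. Next below PC3-N in order were PC3-N(PDGFRα) at 32.5 and 34.1 and PC3-ML at 30.1 and 32.5. Clone 1 (26.6 and 29.6), Clone 3 (25.1 and 26.7), DU-145 (PDGFRα) (28.9 and 30.7) and DU-145 (29.6 and 26.2) had line means below their array medians and overlapped with their neighbours in the order. The PC3-N arrays overlapped with those of no other line.

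EPHB4, the receptor for EFNB2, varied least among the receptors. It read 47.9 and 39.2 in Clone 1, 43.3 and 47.4 in Clone 3, 48.5 and 46.5 in PC3-ML itself, 47.8 and 45.6 in PC3-N(PDGFRα) and 51.8 and 51.2 in PC3-N. In DU-145 (PDGFRα) it read 36.7 and 35.7, and in DU-145 40.0 and 35.3. One Clone 1 array lay below the higher DU-145 array, so the backgrounds overlapped by that pair of arrays.

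EPHB6 has lost the residues needed for kinase activity and works through other receptors. It was high in 2 lines, at 55.0 and 49.3 in Clone 3 and 55.9 and 51.4 in PC3-N. PC3-ML had 41.8 and 37.3 and PC3-N(PDGFRα) 41.1 and 35.8. Levels of 31.9 and 34.4 in Clone 1, 33.1 and 36.9 in DU-145 (PDGFRα) and 34.0 and 29.4 in DU-145 followed. Clone 3 and PC3-N overlapped with each other and with no other line, and each pair of neighbours among the other 5 lines overlapped.

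Among the A-type ephrins, EFNA1, the ligand most used to activate EPHA2, read between 29.4 and 39.0 on all 14 arrays, close to the array medians. Its 2 DU-145 arrays, at 39.0 and 30.7, spanned nearly all of that range, and its level was not shown to differ among the lines. EFNA5, which binds several EphA receptors and also EPHB2, was highest in the DU-145 lines. In the PC3 background it read 95.2 and 99.7 in Clone 1, 102.6 and 86.7 in PC3-N(PDGFRα), 66.6 and 84.9 in PC3-ML, 62.8 and 62.7 in Clone 3 and 69.7 and 78.9 in PC3-N. It read 197.8 and 177.0 in DU-145 (PDGFRα) and 206.7 and 180.5 in DU-145. Within PC3, Clone 1 and PC3-N(PDGFRα) overlapped at the top, PC3-ML and PC3-N overlapped below them, and both Clone 3 arrays lay below all others.

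Both B-type ephrins among the members spread within the PC3 background as well as between backgrounds. EFNB1 read 58.7 and 73.1 in Clone 1, 112.6 and 120.6 in Clone 3, 77.2 and 96.4 in PC3-ML itself, 74.7 and 79.7 in PC3-N(PDGFRα) and 118.5 and 93.0 in PC3-N. In DU-145 (PDGFRα) it read 50.7 and 56.6 and in DU-145 51.8 and 64.0, so Clone 1 overlapped with DU-145. EFNB2, which guides the growth of arteries through EPHB4, read 29.1 and 28.4 in Clone 1, 61.8 and 69.3 in Clone 3, 64.0 and 62.2 in PC3-ML itself, 44.0 and 40.3 in PC3-N(PDGFRα) and 72.2 and 73.5 in PC3-N. It read 27.2 and 24.4 in DU-145 (PDGFRα) and 24.5 and 31.3 in DU-145. The arrays of Clone 1 overlapped with those of DU-145, and Clone 1 and both DU-145 lines had means below their array medians. PC3-N(PDGFRα) lay between these 3 lines and the other PC3 lines and overlapped with none.

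Between the backgrounds, EPHA2 and EPHB4 were higher and EFNA5 was lower in the PC3 lines. In this test each line counted once, with 5 PC3 means against 2 DU-145 means, and 3 of the 8 members were called against 17.6% of all genes. On the log2 scale EPHA2 averaged 6.31 ± 0.13 over the PC3 lines and 5.56 ± 0.04 over the DU-145 lines (SD over lines), a difference of 0.74 (SE 0.09, adjusted p = 0.00341). EFNA5 averaged 6.32 ± 0.27 over the PC3 lines and 7.57 ± 0.03 over the DU-145 lines, and its difference was -1.25 (SE 0.18, adjusted p = 0.00529), 0.419 of the DU-145 intensity. EPHB4 differed by 0.34 (SE 0.07, adjusted p = 0.0176), and was not called without the first Clone 1 array (adjusted p = 0.0805). EFNB2 and EFNB1 had differences of 0.95 and 0.67 that did not pass (adjusted p = 0.135 and 0.0904). EFNB1 passed with the filter on dim probe sets (adjusted p = 0.0487) and with a variance trend and robust estimation (adjusted p = 0.0408). EFNB2 and EFNB1 both passed with line as a random block beside the replicate block (adjusted p = 0.0206 for EFNB2 and 0.0171 for EFNB1). That fit used single arrays and 1 within-line correlation, 0.324, for all genes, so it counted passages of a line partly as separate lines. Its SE for EFNB2 was 0.27, against 0.37 on line means. EPHB6, EPHA4 and EFNA1 had differences of 0.36, 0.16 and -0.02 and did not pass either. All 10 PC3 arrays lay above all 4 DU-145 arrays for EPHA2, as for 10.1% of all genes, and below them for EFNA5, as for 7.41%. Lines of 1 background are related, so these p values treat as independent what is not.

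The bone metastatic lines against the others gave no member past the test. Here the comparison is of 4 line means with 3, and 0 of the 8 members were called by limma, with 0 at an unadjusted p under 0.05. Over all genes the share called was 0%, and 12.2% had an unadjusted p under 0.05. The 2 DU-145 lines are both in the non-bone metastatic group. EFNA5 averaged 6.34 ± 0.30 over bone metastatic and 7.12 ± 0.78 over non-bone metastatic lines on the log2 scale, a difference of -0.78 (adjusted p = 0.426). EPHA2 averaged 6.25 ± 0.07 over bone metastatic and 5.88 ± 0.55 over non-bone metastatic lines, a difference of 0.37 (adjusted p = 0.506).

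Within the PC3 background, where PC3-N is the single non-bone metastatic line, 6 of the 8 members had the opposite sign. EFNB2 had -0.62 there against 0.34 over all 7 lines, EPHB6 -0.41 against 0.05, EFNB1 -0.31 against 0.30, EPHA2 -0.26 against 0.37, EPHB4 -0.17 against 0.15 and EFNA5 0.13 against -0.78. EPHA4 and EFNA1 kept their sign, at -0.65 against -0.19 and at -0.21 against -0.11. None of these was called, with adjusted p values of 1.0 among the PC3 lines, where the group without bone metastasis is 1 line. The label and the background cannot be told apart in the DU-145 lines, which are all of 1 group.

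**Figure D2:**
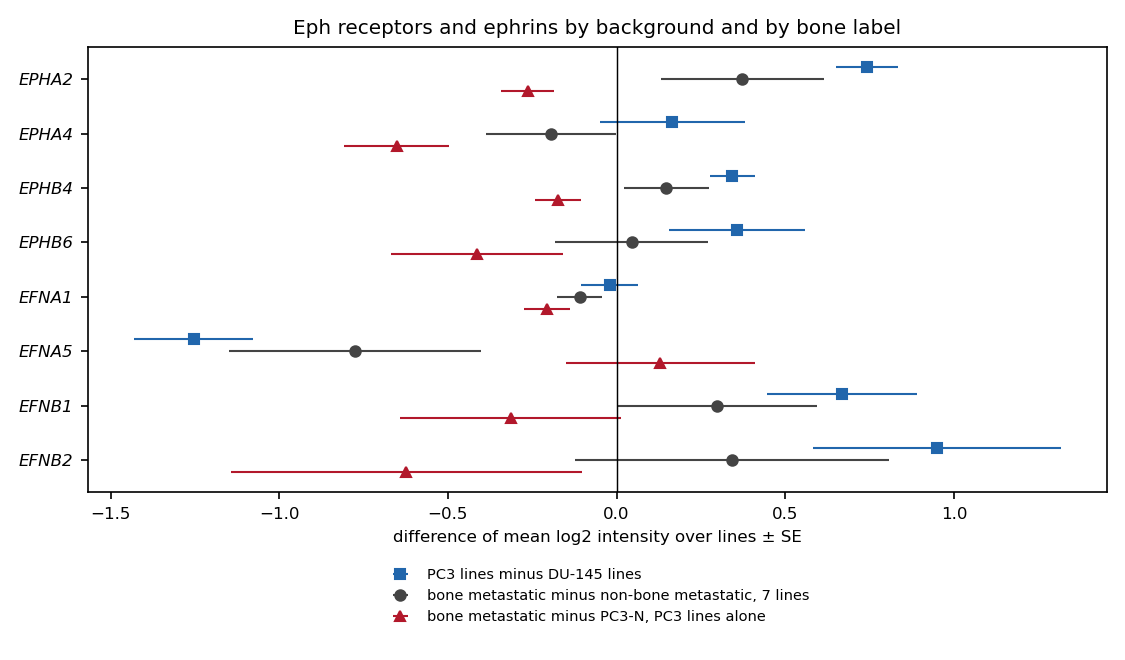
Difference of mean log2 intensity over lines, with its SE, for each member. Squares give the PC3 lines minus the DU-145 lines, circles the 4 bone metastatic minus the 3 non-bone metastatic lines, and triangles the 4 bone metastatic PC3 lines minus PC3-N. For 6 members circles and triangles lie on opposite sides of 0, as for EFNB2 at 0.34 and -0.62.

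PC3-ML, the bone metastatic subline, had less EPHA4 than PC3-N. Its 2 arrays read 30.1 and 32.5 in PC3-ML against 46.5 and 46.2 in PC3-N, a log2 change of -0.57 (SE 0.08, adjusted p = 0.0203). That was the 1 member called of 8, where 0.348% of all genes were called. It was not called without the first PC3-ML array (adjusted p = 0.200) or without the first PC3-N array (adjusted p = 0.145). EPHB6 had the second largest change, -0.44, and did not pass (adjusted p = 0.147). The other changes ran between -0.28 for EFNB1 and 0.02 for EFNA5. Of the 8 changes 7 were below 0, with a median of -0.20 against -0.01 over all genes.

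PC3-N(PDGFRα) had less EFNB2 and EPHA4 than PC3-N, the line that carries no overexpression. EFNB2 read 44.0 and 40.3 in PC3-N(PDGFRα) against 72.2 and 73.5 in PC3-N, a log2 change of -0.79 (SE 0.11, adjusted p = 0.00710). EPHA4 read 32.5 and 34.1 in PC3-N(PDGFRα) against 46.5 and 46.2 in PC3-N, a change of -0.48 (SE 0.08, adjusted p = 0.0162). These were the 2 members called, where 2.20% of all genes were called. EPHB6 lay at the threshold, with a change of -0.48 and an adjusted p of 0.0513. EFNB1 at -0.44, EPHA2 at -0.36, EFNA1 at -0.28, EPHB4 at -0.14 and EFNA5 at 0.35 did not pass. At an unadjusted p under 0.05 stood 7 of the 8 members, all but EPHB4, as did 13.7% of all genes. The median change was -0.40 against 0.00 over all genes. EFNB2 was not called without the second PC3-N(PDGFRα) array (adjusted p = 0.0539), and EPHA4 was not called without either PC3-N(PDGFRα) array (adjusted p = 0.127 and 0.0598) or without the first PC3-N array (adjusted p = 0.0915). This comparison and the one of PC3-ML share the PC3-N arrays, in which 6 members had their highest mean, so their directions are not independent.

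In DU-145 no member passed the test with overexpression, at the lower PDGFRA level given above. Between DU-145 (PDGFRα) and DU-145 the log2 changes ran from -0.18 for EFNA1 to 0.14 for EPHB6, with SEs between 0.08 and 0.16. None of the 8 was called by limma, where 0.310% of all genes were, and 0 had an unadjusted p under 0.05, as 13.0% of all genes had. EFNB2 had a change of -0.10 in DU-145, where both lines had means below their array medians. EPHA4 had a change of 0.09 there, also below the array medians.

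Whether overexpression had a different effect in PC3-N than in DU-145 was tested itself. It was -0.57 for EPHA4 (SE 0.11, adjusted p = 0.0631), -0.69 for EFNB2 (SE 0.15, adjusted p = 0.10) and -0.63 for EPHB6 (SE 0.15, adjusted p = 0.118). None of the 8 members passed, where 0.533% of all genes did, so the members were not shown to respond differently in the 2 backgrounds. These 3 had an unadjusted p under 0.05, as had 12.4% of all genes. EPHA4 passed with a variance trend and robust estimation (adjusted p = 0.0325), and EFNB2 passed without the second DU-145 array (adjusted p = 0.0153).

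The 2 clones of PC3-ML differed from each other in 4 of the 8 members, where 10.5% of all genes were called. EFNB2 read 29.1 and 28.4 in Clone 1 against 61.8 and 69.3 in Clone 3, a log2 change of -1.19 (SE 0.11, adjusted p = 0.000173). EFNB1 read 58.7 and 73.1 in Clone 1 against 112.6 and 120.6 in Clone 3, a change of -0.83 (SE 0.16, adjusted p = 0.00858). EPHB6 read 31.9 and 34.4 in Clone 1 against 55.0 and 49.3 in Clone 3, a change of -0.65 (SE 0.11, adjusted p = 0.00375). EFNA5 was the 1 called member that was higher in Clone 1, at 95.2 and 99.7 against 62.8 and 62.7 in Clone 3, a change of 0.63 (SE 0.13, adjusted p = 0.0107). Both B-type ephrins among the members were lower in Clone 1. EPHA2, EPHA4, EPHB4 and EFNA1 had changes between -0.07 and 0.12 that did not pass. The calls of EFNB2 and EPHB6 held with each of the 4 arrays left out in turn. EFNB1 was not called without the first Clone 1 array (adjusted p = 0.0743) or the second Clone 3 array (adjusted p = 0.0618). EFNA5 was not called without the second Clone 1 array (adjusted p = 0.0769) or either Clone 3 array (adjusted p = 0.0600 and 0.0605).

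Set against their parent, the clones departed in different members. Clone 1 had less EFNB2, at 29.1 and 28.4 against 64.0 and 62.2 in PC3-ML, a log2 change of -1.13 (SE 0.11, adjusted p = 0.000218) and 0.456 of the parent's intensity. That was the 1 member called of 8, where 13.8% of all genes were called. It ended below the array median, so the size is a low estimate. EFNA5 at 0.37 (adjusted p = 0.0871), EFNB1 at -0.40 (adjusted p = 0.147) and EPHB6 at -0.25 (adjusted p = 0.168) did not pass. Without the second PC3-ML array EFNA5 passed too (adjusted p = 0.0271).

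Clone 3 had more EPHB6, at 55.0 and 49.3 against 41.8 and 37.3 in PC3-ML, a log2 change of 0.40 (SE 0.11, adjusted p = 0.0496). That was again 1 member of 8, where 8.10% of all genes were called. The call was lost without any 1 of the 4 arrays (adjusted p between 0.0856 and 0.270) and with quantile normalization (adjusted p = 0.0566). EFNB1 had a change of 0.43 (adjusted p = 0.144) and EPHA4 one of -0.27 (adjusted p = 0.0626), and neither passed. EFNB2 had a change of 0.05 in Clone 3 (adjusted p = 0.890). Both comparisons share the PC3-ML arrays. The labels give PC3-ML and both clones as bone metastatic, so these differences lie within 1 group of the label.

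**Figure D3:**
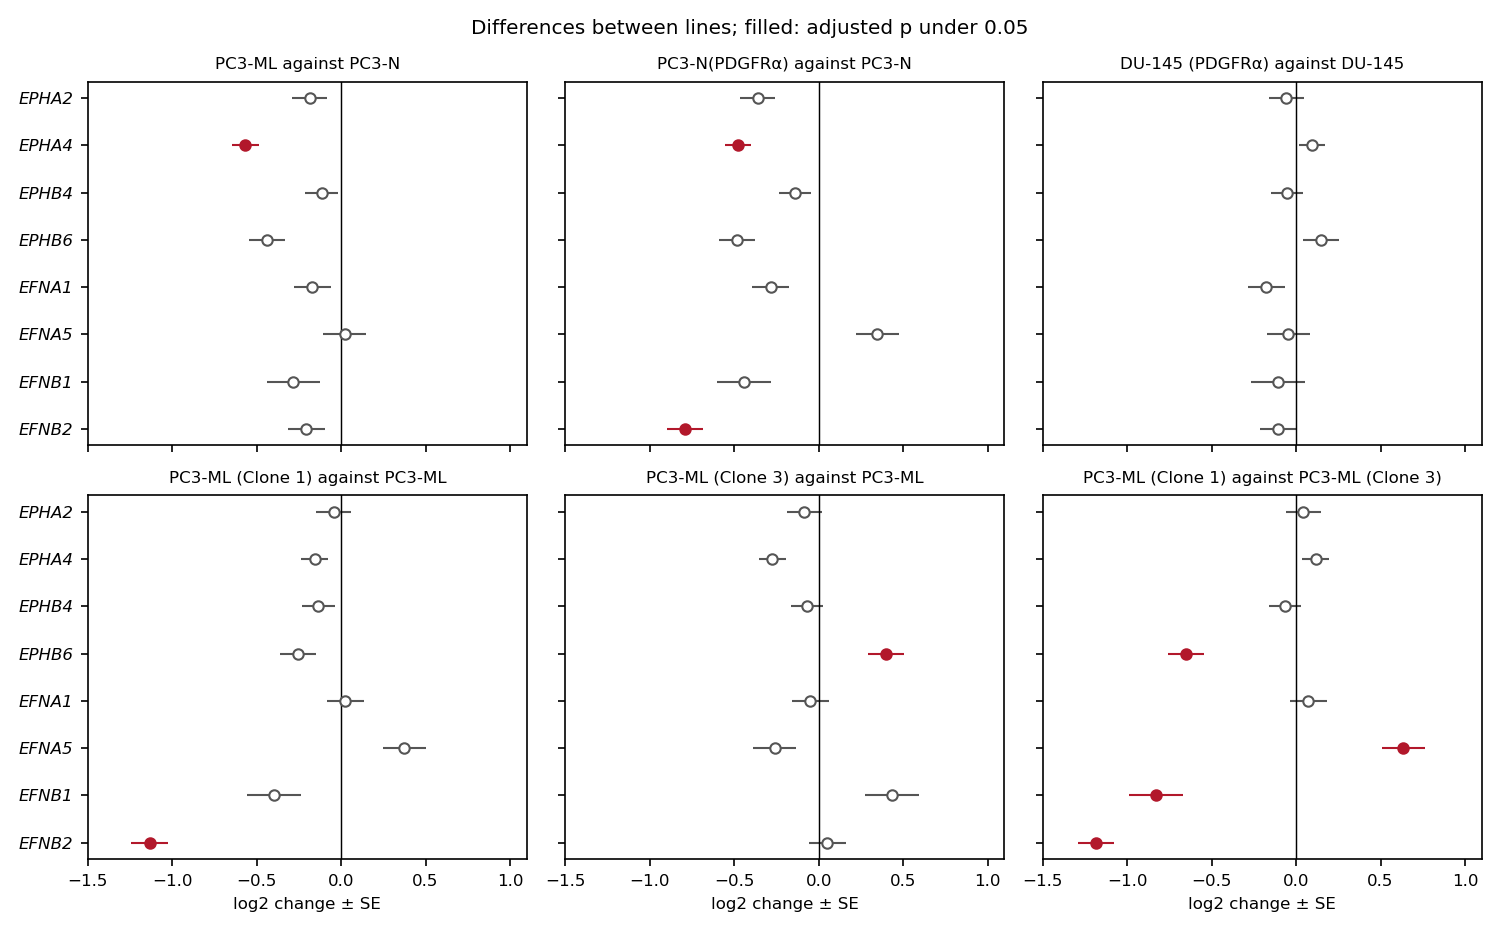
Log2 change and its SE (horizontal axis) of the 8 members in 6 comparisons between lines, with filled points where the adjusted p over all genes is under 0.05. EFNB2 is filled in 3 panels, at -0.79 in PC3-N(PDGFRα) against PC3-N, -1.13 in Clone 1 against PC3-ML and -1.19 in Clone 1 against Clone 3, and no point is filled for DU-145 (PDGFRα) against DU-145.

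All 13 other Eph receptors and ephrins of the list were measured, and 5 of them differed among the 7 lines (F test), a share of 38.5%, close to the 38.0% of all genes. EPHA1, EPHA6, EPHB1, EPHB3 and EFNA3 had a mean below the array median in all 7 lines. EPHA3, a receptor known from lymphoid and glial tumours, had a mean below the array median in 5 lines, PC3-ML among them. It read 52.0 and 46.1 in Clone 3 against 26.7 and 29.3 in PC3-ML, a log2 change of 0.81 (SE 0.12, adjusted p = 0.00329). In Clone 1 it read 28.0 and 35.5, so Clone 3 stood above all other lines. EPHA7, a receptor of the developing brain, was raised in the other clone, at 51.7 and 52.8 in Clone 1 against 32.2 and 33.4 in PC3-ML, a change of 0.67 (SE 0.08, adjusted p = 0.000781). EPHA7 read 37.9 and 31.6 in Clone 3, and between 24.8 and 26.6 on the DU-145 arrays. All its PC3 arrays lay above these, as for 10.1% of all genes, but its difference of 0.58 between the backgrounds did not pass (adjusted p = 0.0694).

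EPHA5, another receptor for A-type ephrins, had a mean below the array median in 4 lines, PC3-N(PDGFRα) among them. It read 24.2 and 24.1 in PC3-N(PDGFRα) against 31.5 and 39.2 in PC3-N, a log2 change of -0.54 (SE 0.10, adjusted p = 0.0240). It was not called without either PC3-N(PDGFRα) array or the second PC3-N array (adjusted p up to 0.143). EFNB3, the third B-type ephrin, was higher in the PC3 lines by 0.38 (SE 0.09, adjusted p = 0.0290). All its PC3 arrays, at 38.8 to 52.1, lay above the DU-145 arrays, at 31.6 to 35.9, as for 10.1% of all genes. EPHA10, which like EPHB6 lacks kinase activity, was lower by 0.30 in both Clone 1 and Clone 3 than in PC3-ML (adjusted p = 0.0337 and 0.0470). The call of EPHA10 was lost in 4 of 8 alternatives in Clone 1 and in 7 of 8 in Clone 3. EPHA8, below the array median in 6 lines, had a difference of -0.17 between the PC3 and the DU-145 lines (adjusted p = 0.0260), and was not called by the F test. That call was lost without the first PC3-ML array, the second DU-145 array or the second DU-145 (PDGFRα) array (adjusted p up to 0.0932).

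**Figure D4:**
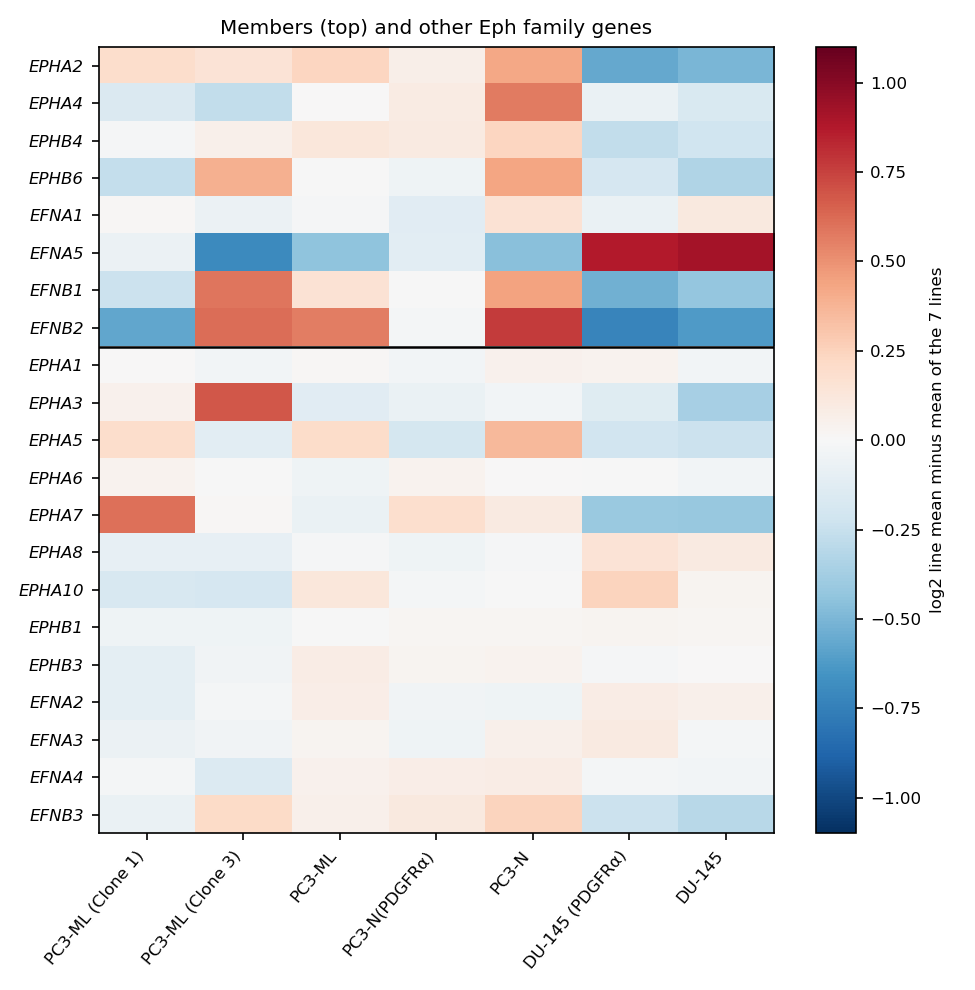
Line means of log2 intensity minus the mean of the 7 lines (colour scale in log2 units) for the 8 members above the black line and the 13 other family genes below it. The deepest colours are those of EFNA5 and EFNB2 among the members and of EPHA3 in Clone 3 and EPHA7 in Clone 1 among the others.

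Of 38 genes for proteins that carry, end or shed Eph and ephrin signals, 35 were measured and 24 of them, or 68.6%, differed among the 7 lines by the F test, as did 38.0% of all genes. The widest spreads were those of FYN, a Src family kinase that acts below both partners, at 2.90-fold, CHN1, which switches off Rac1 below EPHA4, at 2.62-fold, ROCK2, a kinase below RhoA, at 2.52-fold, and TIAM1, which activates Rac1, at 2.31-fold. Between the backgrounds 12 of the 35 were called, where 17.6% of all genes were, 8 of the 12 higher in the PC3 lines. Among these GRB10, an adaptor that binds Eph receptors, was higher by 0.79 on the log2 scale (SE 0.07, adjusted p = 0.000953), ROCK2 by 0.93 (adjusted p = 0.0338) and INPPL1, a lipid phosphatase that binds EPHA2, by 0.73 (adjusted p = 0.0109). ADAM10, the protease that cuts ephrins from the membrane, was lower by 0.74 in the PC3 lines (SE 0.14, adjusted p = 0.0151). ROCK2 was not called without the first PC3-N(PDGFRα) array (adjusted p = 0.0503).

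In PC3-N(PDGFRα) against PC3-N, where EFNB2 and EPHA4 fell, 3 of the 35 were called and 2.20% of all genes were. CHN1 rose by 0.71 (adjusted p = 0.00759), YES1, another Src family kinase, rose by 0.41 (adjusted p = 0.0194) and ROCK2 fell by 0.72 (adjusted p = 0.0138). Each was lost when single arrays were left out (2, 4 and 3 of the 4 arrays, in that order). None of the 35 was called in PC3-ML against PC3-N, in DU-145 (PDGFRα) against DU-145, in the difference between the effects of overexpression or by the bone metastatic label. At an unadjusted p under 0.05 stood 6, 4, 7 and 6 of the 35 in these comparisons, where 10.5%, 13.0%, 12.4% and 12.2% of all genes did.

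The clones departed from PC3-ML in 9 of the 35 for Clone 1, where 13.8% of all genes were called, and in 8 for Clone 3, where 8.10% were. FYN was higher in both, by 1.04 in Clone 1 (SE 0.08, adjusted p = 8.73e-05) and by 0.49 in Clone 3 (SE 0.08, adjusted p = 0.00653). Clone 1 also had more CHN1 by 0.55 and RHOA, the GTPase above ROCK1 and ROCK2, by 0.44, and less of the phosphatase gene PTPN1, by a change of -0.71. Clone 3 had more ROCK1, by 0.52, and more SDCBP, which encodes syntenin, a binder of the tails of B-type ephrins, by 0.73, and less of the phosphoinositide 3-kinase subunit gene PIK3R1, by a change of -0.57. Between the clones 8 were called, where 10.5% of all genes were, with SDCBP at -1.06, PIK3R1 at 0.61, ROCK1 at -0.57 and FYN at 0.54 the largest, all as Clone 1 against Clone 3. Among these, FYN in Clone 3 was not called without the first Clone 3 array (adjusted p = 0.0505), CHN1 in Clone 1 not without the second Clone 1 array (adjusted p = 0.0504), and ROCK1 in Clone 3 not without the first PC3-ML array (adjusted p = 0.0616). RHOA was lost without 2 of the 4 arrays left out in turn, and PTPN1 in Clone 1 and SDCBP in Clone 3 without any 1 of the 4.

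The genes most like the 3 members whose line means spread by at least 1 log2 unit were sought among the 2175 genes with as wide a spread. Likeness was the root mean square difference of centred log2 line means over the 7 lines, as a description of these lines, which share their backgrounds. Nearest to EFNA5 were CCDC186 at 0.047, PTER at 0.101 and PLOD2 at 0.103. Nearest to EFNB1 were C2CD2 at 0.103, LONRF3 at 0.105 and TCEA3 at 0.113. EFNB2 had no neighbour as close, with KAT2B at 0.149, MTARC1 at 0.149 and TFF2 at 0.152.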

How the data were processed

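Total RNA of 14 cultures (7 lines, 2 passages each) was labelled with biotin and hybridised to single-colour oligonucleotide arrays, per the labels' protocols. The authors deposited intensities after RMA, per the submitters' processing notes; its version is not given in the sources used here. Values in the deposited table are intensity on a linear scale, and log2 was taken without a pseudocount. Depth does not apply to arrays, and their number limits the precision.

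The table holds 28829 probe sets: 19291 with 1 gene symbol, 1735 with several and 7803 with none. The probe set with the highest mean stood for a gene, which gave 18372 genes, with no filter on dim values. Identifiers of 19260 probe sets matched RefSeq (GRCh38.p14).

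The fit in limma 3.58.1 (R 4.3.3) had a mean for each line and used all 14 arrays, with 7 residual degrees of freedom. Backgrounds and bone labels were compared on 7 line means. Tests were two-sided and adjusted by Benjamini-Hochberg over all genes. Only the comparison of PC3-ML against PC3-N was tried on simulated data, and the other tests were not. Alternatives were quantile normalization, a filter at a mean log2 of 5, a variance trend with robust estimation, the replicate number as a block, PC3 lines alone and each array left out.

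All members were named. Other family genes were named with values where called, partners up to 4 per comparison, and the 3 most alike genes for each member with a spread of at least 1. The members and lists were chosen with earlier results of these data known.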

Additional observations from a re-analysis of the deposited data

How the results depend on the processing

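No called change of a member turned its direction under any alternative run. Among the uncalled, 6 differences by the bone label did so among the PC3 lines alone, with the values given above. Turns of direction in other uncalled changes were not counted. The calls of EFNB2 in Clone 1 against PC3-ML and against Clone 3, of EPHB6 between the clones, of EPHA2 and EFNA5 between the backgrounds and of 7 members by the F test held in all in which the gene was tested. EPHA4 was not tested with the filter on dim probe sets, which left 6 members called by the F test. The replicate numbers were not used as pairs in the main fit. Deviations of same-numbered arrays correlated between -0.199 and 0.245 over 21 pairs of lines, with 5 pairs over 0.1. Whether same-numbered arrays of some lines shared a batch was not tested. With the replicate block, EPHB6 passed in PC3-N(PDGFRα) against PC3-N (adjusted p = 0.0483), and with line as a random block beside it 5 members instead of 3 were called between the backgrounds, EFNB1 (adjusted p = 0.0171) and EFNB2 (adjusted p = 0.0206) being added. Over all genes the replicate block alone gave 42 calls instead of 64 in PC3-ML against PC3-N, 10 instead of 57 in DU-145 (PDGFRα) against DU-145. With the random block as well, 19 genes instead of 0 were called by the bone label, with no member among them. The random block counted passages of a line partly as separate lines, so the calls it added carry that limit. The filter on dim probe sets left 0 members called in PC3-ML against PC3-N, for the same reason, and 100 genes there. With the variance trend and robust estimation 1 member was called in the difference between the effects of overexpression, and 100 genes in DU-145 (PDGFRα). Quantile normalization left 0 members called in Clone 3 against PC3-ML. With 1 array left out in turn, the members called numbered 0 to 1 in PC3-ML against PC3-N, 0 to 3 in PC3-N(PDGFRα), 0 to 1 in the difference of effects, 1 to 2 in Clone 1 and 0 in Clone 3 against PC3-ML, and 2 to 3 between the clones. The genes called then numbered 12 to 170, 71 to 404, 26 to 249, 1213 to 1981, 431 to 1232 and 1018 to 1123 in the same comparisons, and 15 to 418 in DU-145 (PDGFRα). Beyond these alternatives' own construction, with fewer arrays or genes tested, the cause was not tested. Each member has 1 probe set, so no other probe set could take its place.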
